A study of Mus musculus with 6 samples.

Results

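Voltage-gated calcium and sodium channel subunits were described in fetal mouse cortex whose dams had been exposed to sevoflurane. The set holds every gene whose symbol in the deposited expression table marks it as a calcium channel pore subunit (Cacna1a to Cacna1i), an α2δ subunit (Cacna2d1 to Cacna2d4), a calcium channel β subunit (Cacnb1 to Cacnb4), a γ subunit (Cacng1 to Cacng8), a sodium channel pore subunit (Scn, a number and the letter a) or a sodium channel β subunit (Scn, a number and the letter b). This rule used no measured value and found 39 genes among the 56198 entries of the table, of which 19 encode pores and 20 encode auxiliary subunits. Cacna1s, the pore of skeletal muscle, falls outside the rule and lay between 0.08 and 0.75 TPM.

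RNA-Seq was carried out on whole fetal cerebral cortex of C57BL/6 mice at embryonic day 14.5 (E14.5). In the Sevo group (n = 3 samples), the dams inhaled 2.5% sevoflurane, a volatile general anaesthetic, carried in 97.5% O2 for 6 h. In the Ctr group (n = 3 samples), the dams inhaled 100% O2 for 6 h, and the fetal cortex of both groups was taken when the exposure ended. The number of fetuses or litters behind each sample is not stated, so the p-values measure only the spread between these samples, which may be technical.

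Levels are given in TPM, a transcript measure scaled to transcript length and to each sample's total, so that genes can be set beside each other. The read depth behind these levels is unknown. Between 14485 and 15193 entries per sample reached 1 TPM, and mitochondrially encoded genes took 7.89% to 9.13% of the TPM. The summed neuron markers overlapped between the groups (3061 to 3626 TPM in the Sevo group and 3134 to 3570 TPM in the Ctr group), a sum in which Tubb3 was the largest term. Of these markers, 7 of 10 had a negative difference, and Tbr1, a deep-layer neuron marker, averaged 137.5 ± 7.95 TPM in the Sevo group and 194.4 ± 24.9 TPM in the Ctr group (SD, n = 3 each), without overlap (adjusted p = 0.108, limma). All 10 neuron markers were expressed at 1 TPM or more. Of the 7 muscle markers, 1 (Myog) was at 0 in all 6 samples, and the highest value of any was 1.02 TPM.

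Voltage-gated calcium and sodium channels open when a membrane depolarises and let calcium or sodium ions into the cell. Each is built around a single large pore protein, called α1 in calcium channels and α in sodium channels, whose identity sets its voltage range and its drug sensitivity. Auxiliary subunits bring the pore to the surface and tune its gating: α2δ and β proteins do so for the high-voltage-activated calcium channels, and single-pass β proteins for the sodium channels. The T-type pores open at low voltage and can work without these partners. Most γ subunits of the brain are better known as transmembrane AMPA receptor regulatory proteins (TARPs), which traffic AMPA-type glutamate receptors. In young neurons, calcium entry through such channels is known to bear on migration, neurite growth and excitability.

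Of the 39 genes, 28 averaged 1 TPM or more across the 6 samples and are called expressed here. They comprised 12 of the 19 pores and 16 of the 20 auxiliary subunits. In every sample 24 genes reached 1 TPM, and 14 genes had a mean of at least 10 TPM. Just inside the threshold stood Cacna1i (mean 1.33 TPM), Cacng3 (1.33 TPM) and Scn2b (1.42 TPM). Among the genes just outside it were Scn11a (0.215 TPM) and Scn9a (0.210 TPM).

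The genes below 1 TPM were mostly those known from tissues other than brain. Scn10a and Scn7a were listed at 0 in all 6 samples. The first is a pore of sensory neurons, the second a sodium-sensing relative of the family. Scn4a, the skeletal muscle pore, averaged 0.00667 TPM. Scn9a and Scn11a, both of peripheral sensory neurons, lay between 0.11 and 0.30 TPM. Cacna1f, the pore of retinal photoreceptors, averaged 0.102 TPM. Among the auxiliary subunits, Cacng6 averaged 0.117 TPM, Scn4b 0.0467 TPM and Cacna2d4 0.0233 TPM. Cacng1, the γ subunit of skeletal muscle, was at 0 in every sample except Sevo 2, where it was at 0.49 TPM.

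Stretches of 3 promoters are shown as examples of members at different levels. They belong to Cacna2d1 (mean 35.4 TPM), Scn2b (1.42 TPM) and Scn7a (0 TPM), each with a single window in the RefSeq promoter table. Scn2b is described further for its difference between groups. Each stretch is the 250 bases before the annotated start in RefSeq on GRCm38.p6, written 5′ to 3′ on the gene's strand, with the CG dinucleotides in capitals. In the GENCODE M21 annotation the gene begins inside the window for Scn2b (at 45117782) and for Scn7a (at 66784914), so those windows reach into the gene there.
Cacna2d1, chr5:15934441-15934690, plus strand: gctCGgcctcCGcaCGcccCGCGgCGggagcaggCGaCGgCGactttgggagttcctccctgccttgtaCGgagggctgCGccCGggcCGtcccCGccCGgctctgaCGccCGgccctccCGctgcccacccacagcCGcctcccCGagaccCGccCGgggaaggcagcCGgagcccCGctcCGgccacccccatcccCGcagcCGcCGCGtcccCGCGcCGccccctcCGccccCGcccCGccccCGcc
Scn2b, chr9:45117626-45117875, plus strand: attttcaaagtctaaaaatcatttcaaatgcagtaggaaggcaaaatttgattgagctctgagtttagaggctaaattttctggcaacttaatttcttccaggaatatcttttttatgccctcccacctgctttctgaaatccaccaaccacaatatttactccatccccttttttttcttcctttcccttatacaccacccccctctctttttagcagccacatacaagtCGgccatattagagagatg
Scn7a, chr2:66784911-66785160, minus strand: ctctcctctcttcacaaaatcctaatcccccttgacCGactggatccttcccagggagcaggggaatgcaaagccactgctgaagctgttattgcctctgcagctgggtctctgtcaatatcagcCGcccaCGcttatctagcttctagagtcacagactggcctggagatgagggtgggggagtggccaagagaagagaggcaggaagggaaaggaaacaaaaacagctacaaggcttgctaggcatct
The Cacna2d1 window holds 36 CG dinucleotides, against 1 in the Scn2b window and 3 in the Scn7a window. The table gave a window for 29 of the 39 genes. Taking the window richest in CG for each gene, 11 of 21 expressed members (52.4%) held at least 20 CG dinucleotides, against 1 of 8 members (12.5%) below 1 TPM. That 1 member was Scn4b. Over all 27025 genes of the table, expressed or not, 19.67% reached this count. Taking the richest window favours genes with several: the 21 expressed members had 32 windows, the 8 others 8. Counted by window, 37.5% reached it for expressed members, 12.5% for members below 1 TPM and 17.95% for all genes. The letters searched were CG, which read the same on both strands, and the count is a description of the sequence with no test.

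Calcium channel pores were led by the T-type genes. Cacna1h, a T-type pore, had 42.66, 52.83 and 57.13 TPM in the Sevo samples, against 32.98, 45.15 and 50.30 TPM in the Ctr samples. The groups overlapped, and the difference of 0.25 on the log2(TPM + 1) scale (SE 0.176) had an adjusted p of 0.469 from limma. Cacna1g, the second T-type pore, had 35.62, 34.83 and 43.96 TPM in the Sevo samples, against 21.47, 28.93 and 34.00 TPM in the Ctr samples. All 3 Sevo samples lay above all 3 Ctr samples, with the lowest Sevo and the highest Ctr sample less than 1 TPM apart. The difference was 0.44 on the log2(TPM + 1) scale (SE 0.178, 95% interval 0.03 to 0.85), with an unadjusted p of 0.0385 and an adjusted p of 0.232 from limma. The third T-type pore, Cacna1i, averaged 1.14 ± 0.465 TPM in the Sevo group and 1.51 ± 0.482 TPM in the Ctr group (SD, n = 3 each). Cacna1h and Cacna1g together with Cacna1i made up 0.537 ± 0.0426 of the summed calcium pore TPM in the Sevo group and 0.509 ± 0.0130 in the Ctr group (SD, n = 3 each), and these shares overlapped.

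Among the high-voltage-activated pores, Cacna1a was the most abundant and the least even. Cacna1a, the P/Q-type pore of presynaptic terminals, had 33.85, 13.34 and 46.80 TPM in the Sevo samples, against 10.48, 30.31 and 26.64 TPM in the Ctr samples. Sevo 2 and Ctr 1 stood apart at the low end of their groups, and the highest sample was 4.47 times the lowest. Its difference of 0.42 on the log2(TPM + 1) scale therefore carried an SE of 0.504 (adjusted p = 0.686, limma). The other high-voltage pores were close together in level.

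Cacna1e, the R-type pore, had 10.10, 14.06 and 15.84 TPM in the Sevo samples, against 11.52, 11.00 and 12.70 TPM in the Ctr samples. Cacna1c, an L-type pore that couples calcium entry to gene expression in neurons, had 9.26, 14.89 and 14.88 TPM in the Sevo samples, against 11.11, 10.88 and 13.54 TPM in the Ctr samples. In both genes Sevo 1 was the lowest of the 6 samples, and the other Sevo samples were the highest. Cacna1d, the other L-type pore of brain, had 7.03, 11.76 and 12.65 TPM in the Sevo samples, against 13.57, 8.75 and 11.87 TPM in the Ctr samples. Cacna1b, the N-type pore of transmitter release, had 9.64, 9.32 and 13.60 TPM in the Sevo samples, against 9.65, 12.44 and 14.21 TPM in the Ctr samples. The groups overlapped in these 4 genes, and their differences on the log2(TPM + 1) scale were 0.15 for Cacna1e, 0.10 for Cacna1c, -0.13 for Cacna1d and -0.15 for Cacna1b (adjusted p between 0.679 and 0.813, limma).

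**Figure D1:**
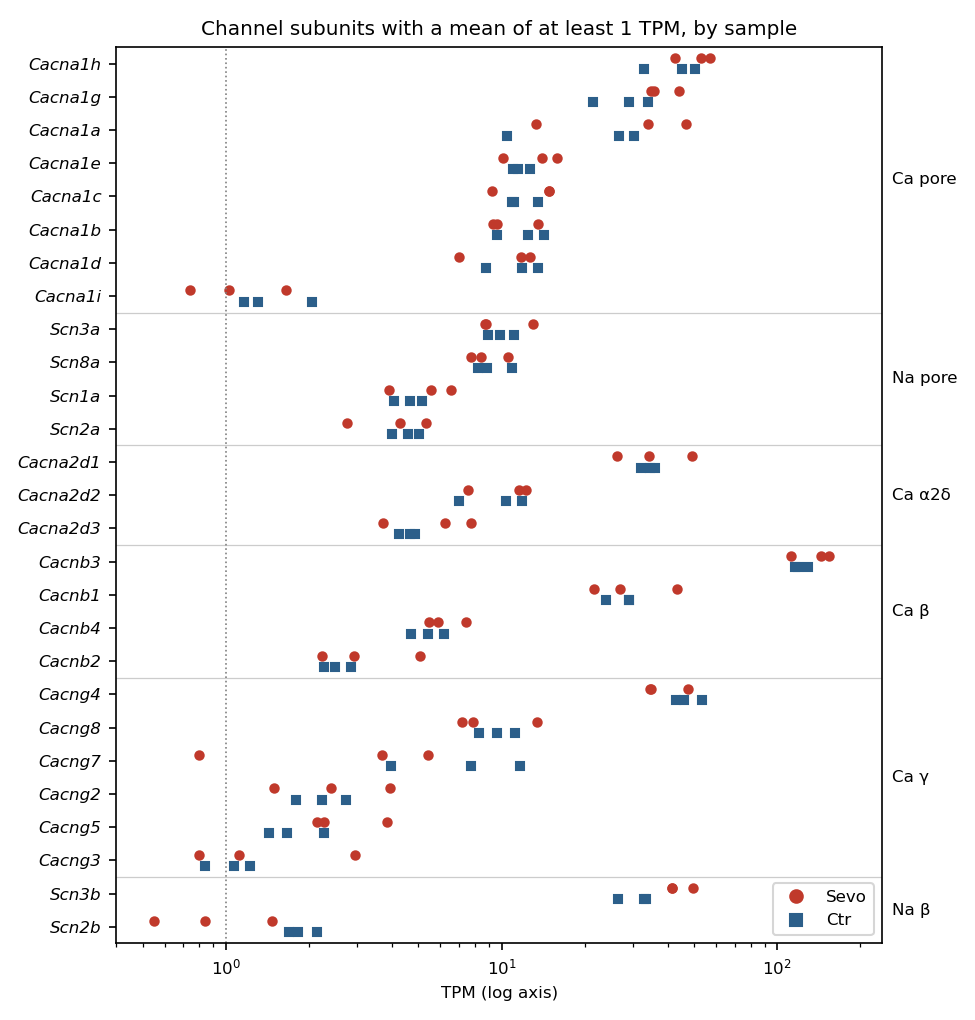
Level of the expressed subunits in TPM (x axis, log scale) in the 3 Sevo samples (circles, upper row of each gene) and the 3 Ctr samples (squares, lower row), grouped by kind of subunit; the dotted line marks 1 TPM. Cacnb3 stands highest, between 112.09 and 154.11 TPM, and only Cacna1g, Scn3b and Scn2b have groups that do not overlap.

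The calcium channel β subunits, cytoplasmic proteins that bind the pore's first intracellular linker and carry it to the membrane, held the most abundant gene of the whole set. Cacnb3 had 143.77, 112.09 and 154.11 TPM in the Sevo samples, against 115.68, 119.21 and 128.74 TPM in the Ctr samples. Sevo 2 was the lowest of all 6 samples and the other Sevo samples the highest. The difference was 0.16 on the log2(TPM + 1) scale (SE 0.127, adjusted p = 0.526, limma). Cacnb3 made up 77.0 ± 8.33% of the summed β subunit TPM in the Sevo group and 77.4 ± 0.691% in the Ctr group (SD, n = 3 each).

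Cacnb1, the β subunit also known from skeletal muscle, came next. It had 21.66, 43.19 and 26.84 TPM in the Sevo samples, against 24.00, 29.01 and 29.01 TPM in the Ctr samples, with Sevo 2 the highest of the 6 samples and Sevo 1 the lowest. Cacnb4 averaged 6.25 ± 1.07 TPM in the Sevo group and 5.43 ± 0.745 TPM in the Ctr group, and Cacnb2 averaged 3.40 ± 1.48 TPM in the Sevo group and 2.53 ± 0.284 TPM in the Ctr group (SD, n = 3 each). All 4 β genes had a positive difference (median 0.16 on the log2(TPM + 1) scale), and none passed the test. Their sum was 173.8, 166.2 and 190.6 TPM in the Sevo samples, against 148.1, 155.4 and 166.0 TPM in the Ctr samples. These sums did not overlap, but Sevo 2 and Ctr 3 were nearly level.

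The α2δ subunits are glycoproteins on the outer face of the membrane, and Cacna2d1 and Cacna2d2 are the binding proteins of the gabapentinoid drugs. Cacna2d1 had 26.22, 48.99 and 34.34 TPM in the Sevo samples, against 36.10, 32.07 and 34.67 TPM in the Ctr samples. The Ctr samples lay close together inside the range of the Sevo samples, of which Sevo 2 was the highest and Sevo 1 the lowest (difference 0.05 on the log2(TPM + 1) scale, adjusted p = 0.927, limma). Cacna2d2 had 7.59, 11.53 and 12.27 TPM in the Sevo samples, against 7.00, 11.86 and 10.42 TPM in the Ctr samples. Its groups overlapped nearly whole, with a difference of 0.09 on the log2(TPM + 1) scale (SE 0.236). Cacna2d3 averaged 5.89 ± 2.03 TPM in the Sevo group and 4.58 ± 0.314 TPM in the Ctr group (SD, n = 3 each; difference 0.26 on the log2(TPM + 1) scale).

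Among the γ subunits, the type I TARP Cacng4 took most of the signal. Cacng4 had 34.69, 34.82 and 47.42 TPM in the Sevo samples, against 45.79, 42.86 and 53.22 TPM in the Ctr samples. Sevo 1 and Sevo 2 lay below all Ctr samples, while Sevo 3 lay among them. The difference was -0.28 on the log2(TPM + 1) scale (SE 0.150, adjusted p = 0.344, limma). Cacng4 made up 66.2 ± 2.03% of the summed γ TPM in the Sevo group and 67.6 ± 3.32% in the Ctr group (SD, n = 3 each).

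Cacng7, a type II TARP, had the widest difference of the set and is given by sample because of it, a choice made after its values were seen. It had 0.80, 5.41 and 3.69 TPM in the Sevo samples, against 3.99, 11.67 and 7.76 TPM in the Ctr samples. Sevo 1 stood far below the rest, Sevo 2 lay above Ctr 1, and the highest sample was 14.6 times the lowest. The difference of -1.12 on the log2(TPM + 1) scale had an SE of 0.505 and a 95% interval that took in 0 (unadjusted p = 0.0583, adjusted p = 0.276, limma).

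The other γ genes were lower or uneven. Cacng8, a type I TARP, averaged 9.52 ± 3.46 TPM in the Sevo group and 9.72 ± 1.44 TPM in the Ctr group. Cacng2, the founding TARP stargazin, averaged 2.61 ± 1.24 TPM in the Sevo group and 2.25 ± 0.465 TPM in the Ctr group. Cacng5, the second type II TARP, averaged 2.75 ± 0.940 TPM in the Sevo group and 1.79 ± 0.433 TPM in the Ctr group (SD, n = 3 each; difference 0.41 on the log2(TPM + 1) scale, adjusted p = 0.390, limma). Cacng3, also type I, averaged 1.62 ± 1.15 TPM in the Sevo group and 1.04 ± 0.191 TPM in the Ctr group. In Cacng2, Cacng3 and Cacng8 alike, Sevo 3 was the highest and Sevo 2 the lowest of the 6 samples.

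Only 4 of the 10 sodium channel pores were expressed, and these are the known pores of central neurons. Scn3a, the pore that is prominent in embryonic brain, was the most abundant, with 8.73, 8.80 and 13.01 TPM in the Sevo samples, against 11.07, 9.87 and 8.96 TPM in the Ctr samples. The Sevo samples enclosed the Ctr samples, and the difference was 0.01 on the log2(TPM + 1) scale (SE 0.181, 95% interval -0.41 to 0.43, adjusted p = 0.980, limma). Scn8a averaged 8.93 ± 1.45 TPM in the Sevo group and 9.34 ± 1.45 TPM in the Ctr group, a level not apart from that of Scn3a beyond their spread. Scn1a, best known from inhibitory neurons and from epilepsy, averaged 5.35 ± 1.34 TPM in the Sevo group and 4.62 ± 0.540 TPM in the Ctr group. Scn2a, an early pore of excitatory neurons, averaged 4.13 ± 1.29 TPM in the Sevo group and 4.53 ± 0.496 TPM in the Ctr group (SD, n = 3 each).

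On chromosome 2, expressed sodium pores have neighbours below 1 TPM. In GENCODE M21 on mm10, Scn3a (65457118 to 65567627), Scn2a (65620771 to 65767447) and Scn1a (66270778 to 66440840) are followed by Scn9a (66480080 to 66634962) and Scn7a (66673425 to 66784914). The first 3 of this row were expressed, and the last genes, Scn9a and Scn7a, were under 1 TPM. Summed over all pores, sodium channels reached 25.59, 26.54 and 36.35 TPM in the Sevo samples, against 29.84, 28.89 and 29.56 TPM in the Ctr samples. Calcium pores summed to 149.2, 152.0 and 206.8 TPM in the Sevo samples, against 112.0, 148.8 and 165.3 TPM in the Ctr samples, so that calcium pores exceeded sodium pores in every sample.

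The sodium channel β subunits are cell adhesion proteins as well as channel partners, and they held both the smallest p-value of the set and the only member lower in every Sevo sample. Scn3b, which lies on chromosome 9 (40269217 to 40291618, mm10), had 41.44, 41.38 and 49.58 TPM in the Sevo samples, against 32.92, 26.51 and 33.48 TPM in the Ctr samples. Every Sevo sample was above every Ctr sample, and the means were 44.1 ± 4.72 TPM in the Sevo group and 31.0 ± 3.87 TPM in the Ctr group (SD, n = 3 each). The difference was 0.50 on the log2(TPM + 1) scale (SE 0.130, 95% interval 0.20 to 0.80), a 1.41-fold difference, with an unadjusted p of 0.00522 and an adjusted p of 0.125 from limma.

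Scn2b, a disulfide-linked β subunit of mature sodium channels, lies on the same chromosome (45117782 to 45130070, mm10) and differed in the other direction. It had 1.47, 0.55 and 0.84 TPM in the Sevo samples, against 1.83, 1.69 and 2.15 TPM in the Ctr samples. All Sevo samples were below all Ctr samples, at levels where the added 1 TPM understates a fold change, and the gene passed the filter through its Ctr samples. The difference was -0.59 on the log2(TPM + 1) scale (SE 0.240), with an unadjusted p of 0.0406 and an adjusted p of 0.237 from limma.

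Scn3b made up most of the β signal, at 88.55%, 92.78% and 90.46% of it in the Sevo samples, against 87.86%, 86.80% and 87.12% in the Ctr samples. The summed sodium β subunits reached 46.80, 44.60 and 54.81 TPM in the Sevo samples, against 37.47, 30.54 and 38.43 TPM in the Ctr samples. Set over the summed sodium pores of the same sample, this gave ratios of 1.829, 1.680 and 1.508 in the Sevo samples, against 1.256, 1.057 and 1.300 in the Ctr samples. The sums and the ratios did not overlap between groups. For a single value, an exact permutation test of 3 against 3 samples cannot go below p = 0.1, and these ratios were chosen after the values were seen, so no test is given.

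**Figure D2:**
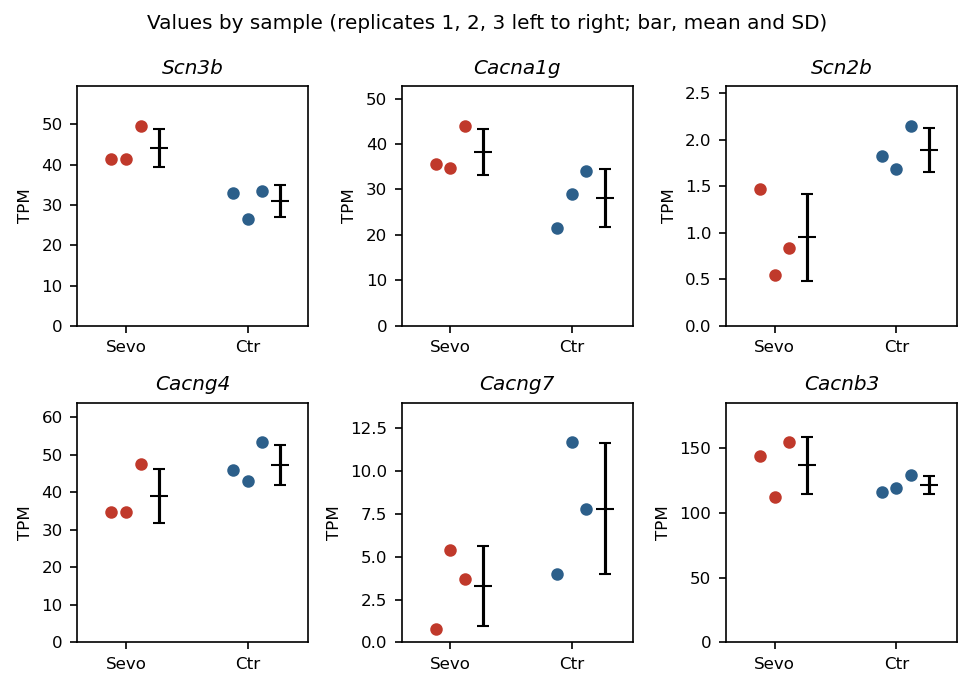
TPM by sample (y axes, each from 0) of Scn3b, Cacna1g, Scn2b, Cacng4, Cacng7 and Cacnb3 in the Sevo group (left) and the Ctr group (right); points are replicates 1 to 3, and the bar gives mean and SD. The groups are apart in Scn3b, Cacna1g and Scn2b, with Scn2b lower in the Sevo group, and they overlap in the other panels.

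No member passed the test. Adjusted p-values from limma over the 14518 genes tested lay between 0.125 (Scn3b) and 0.980 (Scn3a) for the 28 expressed members, and 1 gene of all tested (0.00689%) had an adjusted p under 0.05. At an unadjusted p under 0.05, 2 members were higher in the Sevo group (Scn3b and Cacna1g), beside 6.56% of all genes, and 1 was lower (Scn2b), beside 12.8% of all genes. The same genes were those without overlap: 2 of 28 members (7.14%) lay higher in all Sevo samples, beside 9.43% of all genes, and 1 of 28 (3.57%) lay lower, beside 17.7% of all genes. The share of members higher in all Sevo samples was thus near that of all genes. Scn2b, the 1 lower member in both counts, passed the filter through its Ctr samples, which favours a lower value in the Sevo group.

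Pore and auxiliary subunits were then set side by side. The 12 expressed pores had a median difference of 0.06 on the log2(TPM + 1) scale, with 7 positive and 5 negative, and the 16 expressed auxiliary subunits had a median of 0.13, with 12 positive and 4 negative. The median over all genes tested was -0.06. These medians describe the genes that passed the filter and carry no test. With the log2 values shifted so that all samples shared a median, the pore median was 0.15 and the auxiliary median 0.23, beside 0.04 over all genes, and without Sevo 3 the pore median was -0.08. Leaving out the γ subunits, 9 of 10 auxiliary genes had a positive difference, the exception being Scn2b, and the median was 0.16. By family, the medians were 0.13 for the 8 calcium pores and -0.02 for the 4 sodium pores, the last turning to 0.07 after the same shift. They were 0.09 for the 3 α2δ genes, 0.16 for the 4 calcium β genes and 0.02 for the 6 γ genes, the last standing at 0.12 after the shift.

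In summed level, auxiliary subunits exceeded pores in every sample. Cacnb3 alone held between 112.09 and 154.11 TPM of the auxiliary sum. By gene the order was the reverse, with a median level of 11.2 TPM for the 12 expressed pores and 5.70 TPM for the 16 expressed auxiliary subunits. The pores summed to 174.8, 178.5 and 243.1 TPM in the Sevo samples, against 141.8, 177.7 and 194.9 TPM in the Ctr samples. The auxiliary subunits summed to 313.0, 327.7 and 372.2 TPM in the Sevo samples, against 298.0, 301.6 and 332.3 TPM in the Ctr samples. Both sums overlapped between the groups. The ratio of auxiliary to pore TPM was 1.72 ± 0.164 in the Sevo group and 1.83 ± 0.231 in the Ctr group (SD, n = 3 each), a difference smaller than the spread between samples.

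**Figure D3:**
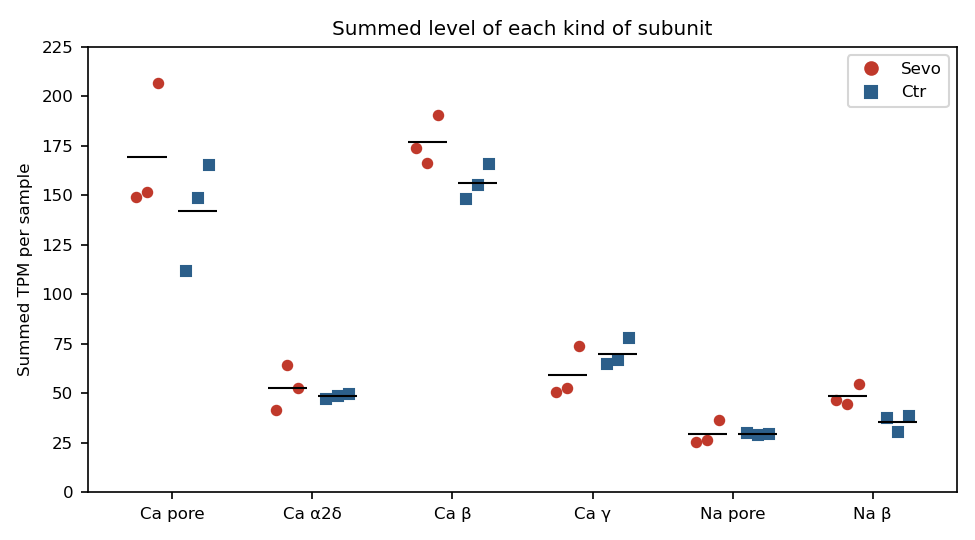
Summed TPM (y axis, from 0) of each kind of subunit in the 3 Sevo samples (circles, left) and the 3 Ctr samples (squares, right), with horizontal lines at the means. The groups are apart for the sodium β subunits and, narrowly, for the calcium β subunits, and overlap for the other kinds.

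**Figure D4:**
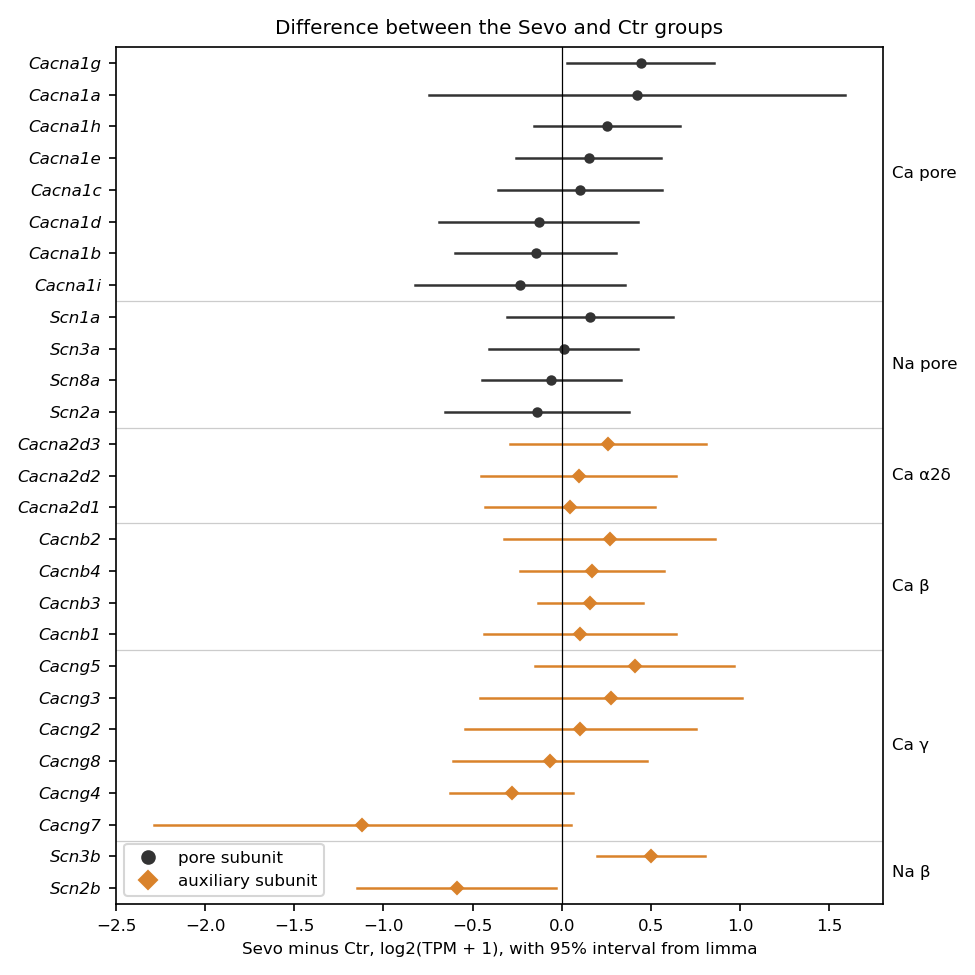
Difference between the groups for the expressed members (x axis, Sevo minus Ctr on the log2(TPM + 1) scale), with 95% intervals from limma not adjusted for the number of genes; circles are pores and diamonds auxiliary subunits. Intervals that leave out 0 belong to Cacna1g, Scn3b and Scn2b.

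Genes that regulate these channels were read from lists of their partners. Of 18 calcium channel partners, 15 were expressed and none had an adjusted p under 0.05, while 4 were higher and 0 were lower by an unadjusted p under 0.05, beside 6.56% and 12.8% of all genes (median difference 0.12 on the log2(TPM + 1) scale). Rem2, a small GTPase known to hold down high-voltage-activated calcium currents through the β subunit, had 12.72, 12.72 and 10.83 TPM in the Sevo samples, against 6.14, 5.71 and 7.00 TPM in the Ctr samples. Its groups were well apart, with a difference of 0.85 on the log2(TPM + 1) scale (SE 0.143, adjusted p = 0.0746, limma). Cbarp, a membrane protein that binds β subunits and lowers calcium channel activity, had 55.42, 57.33 and 62.43 TPM in the Sevo samples, against 43.56, 43.71 and 48.96 TPM in the Ctr samples (difference 0.36, adjusted p = 0.133, limma).

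Cabp1, a calmodulin-like modulator of calcium channels, averaged 85.4 ± 3.98 TPM in the Sevo group and 69.1 ± 6.43 TPM in the Ctr group (SD, n = 3 each; adjusted p = 0.170, limma). Stac2, an adaptor of L-type channels, averaged 4.61 ± 0.814 TPM in the Sevo group and 2.79 ± 0.480 TPM in the Ctr group (SD, n = 3 each; adjusted p = 0.182, limma). The groups did not overlap in either gene. Stac, a relative of Stac2, was lower in all Sevo samples (difference -0.55 on the log2(TPM + 1) scale, adjusted p = 0.274, limma). Stac3 overlapped between the groups. The calmodulin gene Calm2 was the most abundant partner, with a difference of -0.04 on the log2(TPM + 1) scale.

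Of 20 sodium channel partners, 19 were expressed and none had an adjusted p under 0.05, with 1 higher and 2 lower by an unadjusted p under 0.05, shares near those of all genes (6.56% and 12.8%; median difference 0.02 on the log2(TPM + 1) scale). Nedd4, a ubiquitin ligase of the family that removes sodium channels from the membrane, was the most abundant, with 364.5, 367.3 and 357.5 TPM in the Sevo samples, against 418.4, 416.5 and 425.4 TPM in the Ctr samples. Its groups did not overlap, and the difference was -0.21 on the log2(TPM + 1) scale (adjusted p = 0.165, limma). Dpysl2, a collapsin response mediator, had a difference of -0.27 (adjusted p = 0.151, limma), and Nedd4l, the next most abundant partner, one of 0.05.

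The TARP genes act with AMPA receptors, and all 7 genes of the AMPA receptor list were expressed (median difference 0.28 on the log2(TPM + 1) scale, none with an adjusted p under 0.05 and 1 higher at an unadjusted p under 0.05, beside 6.56% of all genes). Cnih2, a cornichon that shares the receptor with TARPs, had 270.7, 286.8 and 318.3 TPM in the Sevo samples, against 234.4, 209.9 and 226.9 TPM in the Ctr samples (difference 0.38, SE 0.0899, adjusted p = 0.111, limma). Gria2, the subunit that makes the receptor impermeable to calcium, had a difference of -0.06.

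REST is a repressor known to silence sodium channel and other neuronal genes outside neurons. Rest averaged 6.00 ± 0.673 TPM in the Sevo group and 6.93 ± 0.906 TPM in the Ctr group (SD, n = 3 each), and its groups overlapped. Of the 6 genes of REST and its corepressors, all expressed, 0 were higher and 3 were lower by an unadjusted p under 0.05, beside 6.56% and 12.8% of all genes, with none at an adjusted p under 0.05 (median difference -0.29 on the log2(TPM + 1) scale). Rcor1, its corepressor CoREST, had 11.96, 13.01 and 12.38 TPM in the Sevo samples, against 20.75, 18.48 and 21.09 TPM in the Ctr samples (difference -0.65, SE 0.116, adjusted p = 0.0750, limma). Hdac1 had a difference of -0.37 without overlap (adjusted p = 0.111, limma), while Hdac2 and Rcor2, the most abundant genes of the list, had differences of -0.22 and 0.04.

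In bulk tissue, fewer cells of a type and less RNA per cell cannot be told apart. Radial glia markers, which mark the dividing progenitors of the cortex, summed to between 1898 and 2116 TPM in the Sevo samples and between 2340 and 2523 TPM in the Ctr samples, without overlap, and 3 of the 8 were lower at an unadjusted p under 0.05, beside 12.8% of all genes. Fabp7 and Vim made up most of this sum. The other 6 markers summed to 385.8, 513.4 and 360.8 TPM in the Sevo samples, against 423.1, 432.2 and 463.1 TPM in the Ctr samples. These sums overlapped, but the genes behind them went both ways. Hes1 and Nes had differences of -0.57 and -0.38 on the log2(TPM + 1) scale. Their unadjusted p-values from limma were 0.0383 and 0.0441, and their adjusted ones 0.231 and 0.244. Pax6 and Hes5 were also negative (-0.17 and -0.06), while Sox2 and Slc1a3 were positive (0.28 and 0.06). Intermediate progenitor markers summed to between 334.8 and 548.4 TPM in the Sevo samples and between 531.5 and 565.0 TPM in the Ctr samples. Of these 4 markers, 3 had a negative difference and 1 a positive one, and Eomes was lower in all Sevo samples (-0.38, adjusted p = 0.163, limma). Interneuron markers summed to between 111.5 TPM (Sevo 1) and 262.7 TPM (Sevo 2) in the Sevo samples and between 141.1 and 168.2 TPM in the Ctr samples. All 7 had a positive difference (median 0.26 on the log2(TPM + 1) scale), and the groups overlapped in each. The part of these marker levels in the channel values was not tested.

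The same sums were taken for cells other than neurons and progenitors. Oligodendrocyte lineage markers stayed at or under 9.08 TPM in every sample, microglia markers lay between 16.28 and 17.22 TPM in the Sevo samples and between 16.70 and 24.36 TPM in the Ctr samples, and muscle markers lay at or under 1.28 TPM. Of the 3 expressed oligodendrocyte lineage markers, 2 had a positive difference and 1 a negative one. Olig2 (mean 2.22 TPM) was higher in all Sevo samples (0.85 on the log2(TPM + 1) scale, adjusted p = 0.157, limma). Endothelial markers lay between 46.4 and 60.7 TPM in the Sevo samples and between 46.0 and 95.6 TPM in the Ctr samples, and mural and meningeal markers between 12.2 and 21.9 TPM in the Sevo samples and between 7.61 and 61.3 TPM in the Ctr samples. Both upper Ctr values came from Ctr 2 alone. There Flt1 had 30.73 TPM and Dcn 28.29 TPM, against 1.94 and 1.71 TPM in Ctr 1 and 3.59 and 2.81 TPM in Ctr 3. Erythroid markers lay between 761.1 and 1368 TPM in the Sevo samples and between 709.8 and 1348 TPM in the Ctr samples, and overlapped.

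Where exons of a member overlap another gene, its reads cannot be told apart from that gene's without strand information. Such overlaps touched Cacna1a, Cacna1d, Cacna1h, Cacna2d2, Cacnb1, Cacnb2, Cacnb4, Cacng2, Cacng8 and Scn9a, and every overlapping gene averaged 1.30 TPM or less. The highest was A430018G15Rik at 1.30 TPM, beside Cacnb4 at 5.84 TPM. Scn3b, Scn2b and Cacna1g overlapped no other gene's exons.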

How the data were processed

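RNA-Seq of 6 fetal cortex samples was used, and groups were taken from the deposited labels. The authors deposited TPM per gene and sample, rounded to 2 decimals. The quantification program is not stated in the sources used. Bowtie 0.12.2, edgeR and the builds mm8 and mm10 appear in the submitters' processing notes. The study's methods name DESeq2 for group differences, which needs counts and was therefore not run. Genes were matched by Ensembl identifier to GENCODE M21 (mm10) for 99.845% of named entries, and 27 symbols turned into dates were restored.

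Sevo and Ctr samples were compared with limma 3.58.1 (R 4.3.3) on log2(TPM + 1), two-sided, with a prior following mean abundance, for the 14518 named genes averaging 1 TPM or more, and p-values were adjusted by Benjamini-Hochberg over all of them. The procedure was tested on simulated data. Some genes are not reported here, in text or figures, but remain in counts, sums and medians, and every other member was named. Values by sample were given for members with a mean of at least 10 TPM, with groups that do not overlap, or with an unadjusted p under 0.05. From each partner list, up to 4 genes without overlap and with an unadjusted p under 0.05 and the 2 most abundant were named. Stac and Stac3 were named in addition, beside Stac2. The members and lists were chosen with earlier results of these data known. Alternatives changed the pseudocount, filter, scaling, prior, replicate block and samples.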

Additional observations from a re-analysis of the deposited data

How the results depend on the processing

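No member had an adjusted p under 0.05 from limma under any of the 17 alternatives, and the lowest adjusted p of any member was 0.102. Scn3b kept a positive difference in each, between 0.40 and 0.60 on the log2(TPM + 1) scale or the alternative's own scale (adjusted p between 0.102 and 0.351, limma). Cacna1g stayed between 0.27 and 0.59 and Scn2b between -1.09 and -0.44 in the 16 alternatives that keep it. With each sample left out in turn, the pore median lay between -0.08 (without Sevo 3) and 0.20 (without Sevo 1), and the auxiliary median between 0.06 and 0.23. The pore median was thus below 0 without Sevo 3, and the cause was not tested. The count of expressed members was 29 at a mean of 0.5 TPM, 19 at 5 TPM and 24 at 1 TPM in every sample.

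Of 467 fold changes over the alternatives, 23 changed sign, in 12 members, and 16 members never did. Alternatives of the filter, the prior and the replicate block leave a member's fold change as it is. Their rows could not change sign, so the share of 467 overstates stability. After centring on the sample medians, Cacng8 stood at 0.0314 and Scn8a at 0.0388. Scn8a was at 0.00877 after quantile normalization and at 0.0486 after a trend on exon length, added after seeing the data, was taken out. When samples were left out in turn, the differences ranged from -0.18 to 0.25 for Cacna2d1, -0.11 to 0.29 for Cacna2d2, -0.17 to 0.31 for Cacnb1, -0.15 to 0.35 for Cacng2, -0.0606 to 0.50 for Cacng3 and -0.32 to 0.0932 for Cacng8. They ranged from -0.0306 to 0.92 for Cacna1a, -0.0028 to 0.31 for Cacna1c, -0.29 to 0.11 for Cacna1d, -0.31 to 0.0687 for Scn2a, -0.16 to 0.10 for Scn3a and -0.17 to 0.0510 for Scn8a.

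Deviations from the group means had correlations of -0.0162, 0.0207 and 0.0149 between samples that share a replicate number. Between samples with different numbers, they ranged from -0.118 to 0.118. The labels do not state whether a number marks a pair or a batch, and these correlations cannot decide it. A replicate block cannot change the medians (0.06 for pores, 0.13 for auxiliary subunits), because each number occurs once in each group. With the block, 0 members and 1 gene of all tested were called, as without it. Over all genes, leaving out Sevo 1 gave 3 higher and 4 lower calls, and leaving out Ctr 3 gave 1 higher and 1 lower. With 3 samples a group and depth unknown, small differences of genes near 1 TPM could not be resolved.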
